A study of Homo sapiens with 20 samples.

Results

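Clade B of the serpin superfamily was followed through the response of MDA-MB-468 cells to epidermal growth factor (EGF). The members were 10 genes, taken by name from the 60271 genes listed in the count table. SERPINB2, SERPINB3, SERPINB4, SERPINB5, SERPINB7, SERPINB8 and SERPINB13 lie in a cluster on chromosome 18, and SERPINB1, SERPINB6 and SERPINB9 lie in a cluster on chromosome 6. The genes were chosen with their levels in these same libraries known, so their levels and fold changes are given as a description and support nothing further. MDA-MB-468 is a human epithelial line from triple negative breast cancer in which the EGF receptor is elevated. The 5 groups were untreated control cells and cells that had received EGF at 50 ng/mL since 12, 24, 48 or 72 h, each with 4 biological replicates (20 libraries). Every group, controls included, was serum-starved first, and all groups were seeded and harvested together, so that only the time of adding EGF differed. All comparisons with control share the same 4 control libraries, and the results hold for 1 cell line.

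Serpins inhibit proteases by offering an exposed loop, the reactive centre loop, as bait. A target protease that cleaves the loop is trapped in a covalent complex as the serpin folds into a more stable form. Clade B members differ from most other serpins in lacking a classical signal peptide and in acting largely inside the cell, where they are thought to protect the cell from its own or from incoming proteases. The chromosome 18 genes are known chiefly from stratified and stressed epithelia, whereas the chromosome 6 genes are known from a wider range of tissues and from white blood cells.

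Library totals ranged from 15611961 to 25856953 counts. After genes with low counts were filtered out, 16522 were tested, among them 9 of the 10 members. SERPINB13 had too few counts to be tested. The share of counts from mitochondrial genes ranged from 7.69% to 16.9% and was highest on average at 72 h. The epithelial markers EPCAM, CDH1, KRT7, KRT8, KRT18, KRT19 and CLDN4 were present in every library. Their summed level was 1600 to 2020 counts per 1000000 counts (CPM) in control, 7430 to 7970 at 12 h, 3740 to 4590 at 24 h, 1790 to 1970 at 48 h and 2490 to 2950 at 72 h, and all 7 were called higher at 12 h. KRT18 was the largest part of this sum, with group means of 788, 5140, 2650, 835 and 1440 CPM from control to 72 h. At 24 h 4 of the 7 were called higher and 1 lower, at 48 h 0 and 2, and at 72 h 4 and 2. EPCAM and CDH1 were those called lower at 48 h (log2 -0.20 and -0.46) and 72 h (-0.33 and -0.49). The marker sum, though not each marker, therefore moved with the serpins described next, and its part in their levels was not tested. Of the 5 markers of other cells, the macrophage marker CD68 went from 1.15 ± 0.331 CPM (SD, n = 4) in control to 26.7 ± 2.13 at 72 h. PECAM1 went from a mean of 2.31 CPM in control to 0.374 at 12 h, called lower (log2 -2.59). At 48 h it had 4.2 CPM, called higher than control (log2 0.87). The leukocyte and endothelial markers PTPRC, CD3E and VWF had group means of 0.265 CPM or less.

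Both clusters are compact. The chromosome 18 members extend over 543 kb (chr18:63476761-64019779, hg38), in the order SERPINB5, SERPINB13, SERPINB4, SERPINB3, SERPINB7, SERPINB2 and SERPINB8, with SERPINB12, SERPINB11 and SERPINB10 between them. The chromosome 6 members extend over 139.8 kb (chr6:2832332-2972165) in the order SERPINB1, SERPINB9 and SERPINB6. The DNA just upstream of the start sites differs between the clusters in median base composition. In the 250 bases before each start site listed in RefSeq (GRCh38.p14), the median GC content was 40.8% over 9 windows of the chromosome 18 members and 71.6% over 6 windows of the chromosome 6 members. The windows overlapped in GC content, at 26% to 60% and 47.6% to 76.8%. Genes with several listed starts weigh more, as SERPINB6 has 4 of the 6 windows, some overlapping, and SERPINB7 3 of the 9. The letters TGANTCA, the consensus bound by AP-1, the Fos and Jun transcription factors that act downstream of EGF signalling, were found on either strand in windows of 5 of the 7 chromosome 18 members and of 0 of the 3 chromosome 6 members. Counted by window this is 6 of 9 and 0 of 6, and the same letters occur in 6.57% of 35116 promoter windows of this length. Those windows were not matched for GC content. The 5 members were SERPINB2, SERPINB5, SERPINB7, SERPINB8 and SERPINB13. SERPINB3 and SERPINB4 held none, and a match is a description of the letters and not a measured binding site. The following stretches, read from RefSeq in the direction of transcription, are examples picked by level or by their matches and do not stand for all windows. SERPINB1, SERPINB3 and SERPINB4, called higher than control at every time, have no TGANTCA in their windows. SERPINB2 is shown as the member with the widest range of levels among the EGF times (chr18:63887455-63887699, plus strand), the third listed start of SERPINB7 as a window with 2 matches (chr18:63777531-63777776, plus strand), and SERPINB9 as the member whose level changed least (chr6:2903310-2903559, minus strand). Capitals mark TGANTCA and the TATA box letters TATAAA, the latter on either strand and present in 10.7% of all windows.
SERPINB2: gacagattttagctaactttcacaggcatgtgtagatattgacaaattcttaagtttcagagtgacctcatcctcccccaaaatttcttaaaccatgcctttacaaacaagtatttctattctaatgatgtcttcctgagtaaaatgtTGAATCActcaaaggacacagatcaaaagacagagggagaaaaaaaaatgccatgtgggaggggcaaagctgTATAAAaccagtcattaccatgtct
SERPINB7: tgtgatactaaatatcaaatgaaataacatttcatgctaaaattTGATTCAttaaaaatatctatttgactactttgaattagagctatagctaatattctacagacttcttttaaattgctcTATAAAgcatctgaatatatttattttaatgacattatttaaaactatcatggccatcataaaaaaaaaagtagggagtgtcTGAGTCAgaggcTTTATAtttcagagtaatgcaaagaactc
SERPINB9: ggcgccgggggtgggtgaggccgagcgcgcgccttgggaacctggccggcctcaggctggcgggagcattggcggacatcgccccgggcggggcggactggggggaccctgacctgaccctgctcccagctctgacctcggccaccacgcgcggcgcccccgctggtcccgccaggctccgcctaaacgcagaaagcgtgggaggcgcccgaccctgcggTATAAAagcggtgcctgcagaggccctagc
The TGANTCA match of SERPINB2 begins 102 bases before the start site and its TATAAA match 30 bases before it. SERPINB9 has a TATAAA match at the same distance of 30 bases and no TGANTCA.

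SERPINB3 and SERPINB4, also known as squamous cell carcinoma antigens, are near copies of one another, which bears on how their counts are read. Their coding sequences are both 1170 bases long and differ at 56 bases (95.2% identity). All other pairs of members without SERPINB6 share 52.8% to 73.1% of aligned bases. SERPINB6 is left out because the coding stretch taken from its transcript was not checked for stop codons inside it. The upstream windows of the pair differ at 3 of 250 bases, and the 180 bases that lie before any annotated exon differ at 1, marked by a capital (SERPINB3, chr18:63661964-63662143, and SERPINB4, chr18:63644327-63644506, both minus strand).
SERPINB3: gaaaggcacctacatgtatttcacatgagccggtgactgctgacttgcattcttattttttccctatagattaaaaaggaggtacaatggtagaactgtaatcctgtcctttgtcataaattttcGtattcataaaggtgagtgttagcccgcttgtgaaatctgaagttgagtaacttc
SERPINB4: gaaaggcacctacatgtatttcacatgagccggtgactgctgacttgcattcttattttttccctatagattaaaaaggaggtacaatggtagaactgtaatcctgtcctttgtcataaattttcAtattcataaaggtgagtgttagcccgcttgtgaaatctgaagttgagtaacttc
The differences in the coding sequence crowd near its end. Coding bases 952 to 1071, codons 318 to 357, hold 18 of the 56, again in capitals, and this stretch encodes the hinge and much of the reactive centre loop, the part that selects the protease.
SERPINB3 coding: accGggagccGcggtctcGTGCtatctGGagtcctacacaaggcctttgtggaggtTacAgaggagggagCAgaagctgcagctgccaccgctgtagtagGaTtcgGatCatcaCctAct
SERPINB4 coding: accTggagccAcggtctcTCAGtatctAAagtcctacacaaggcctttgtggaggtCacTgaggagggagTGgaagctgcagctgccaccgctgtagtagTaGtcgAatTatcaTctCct
Of all 75-base stretches, the read length used here, 10.5% of those in the SERPINB3 transcript and 10.6% of those in the SERPINB4 transcript also occur in the other. Most such stretches thus tell the pair apart, but how the study's counting divided the rest is not given in the sources used here.

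EGF was accompanied by higher levels of most of the family at every time. Against control, 8 of the 9 tested members were called higher after 12, 24 and 48 h and all 9 after 72 h, and 0 were called lower. In the same test 32.9%, 29.2%, 24.0% and 30.6% of all genes were called higher and 36.5%, 29.6%, 21.8% and 31.0% lower at 12, 24, 48 and 72 h, and since the members were chosen from these levels nothing is read from their counts. The groups did not overlap with control for the same 8 members at each time, as was the case for 60.8%, 48.2%, 34.9% and 52.0% of all genes tested at 12, 24, 48 and 72 h. For 7 of the 9, all but SERPINB6 and SERPINB9, the mean level peaked at 12 or 24 h, was lowest among the EGF times at 48 h and was higher again at 72 h. In these bulk libraries, more cells expressing a gene and more RNA per cell cannot be told apart. The plot of each member by library shows this course.

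**Figure D1:**
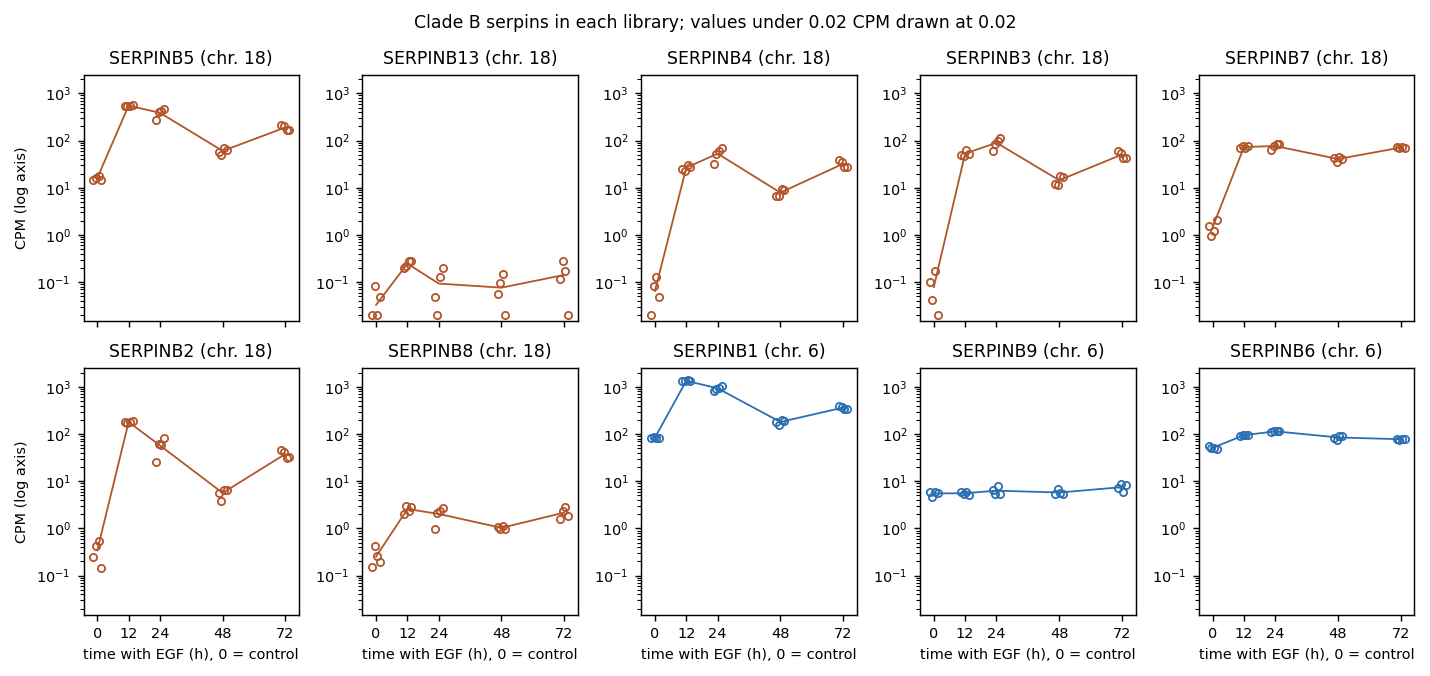
Level of each clade B serpin in CPM (log axis) against hours with EGF, with 0 for control. Open circles are the 20 libraries, lines join the means of 4 libraries, brown marks chromosome 18 and blue chromosome 6. SERPINB2, SERPINB3 and SERPINB4 start near the detection limit and reach 179, 89.7 and 52.8 CPM at their highest group means, while SERPINB9 stays between 4.75 and 8.65 CPM in every library.

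SERPINB2, plasminogen activator inhibitor type 2, inhibits the urokinase and tissue-type plasminogen activators (chr18:63871692-63903890). In control its libraries held 3 to 13 counts, or 0.251, 0.42, 0.555 and 0.144 CPM. At 12 h they stood at 179, 175, 178 and 185 CPM, and at 24 h at 25.1, 62.2, 59 and 83.2 CPM. The 12 h libraries lay close together, whereas those at 24 h were spread widely, with replicate 1 far below the rest. At 48 h the libraries had 5.6, 3.86, 6.65 and 6.48 CPM, and at 72 h 46.7, 41.4, 30.7 and 32.4 CPM. No EGF library of any time overlapped with control, and on the log2 scale its fall from 24 to 48 h and its rise from 48 to 72 h were the largest among the 9 tested members. The 12 h mean was 523-fold the control mean (log2 fold change 8.97 ± 0.43, SE), 16.5-fold at 48 h (3.99 ± 0.55) and 110-fold at 72 h (6.73 ± 0.45). Between 24 and 48 h the level fell by 3.33 ± 0.30 on the log2 scale and then rose by 2.74 ± 0.30. Of its exon bases, 19.91% are shared on the same strand with SERPINB10, which had 2 counts in all 20 libraries together.

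SERPINB5, or maspin, is a clade B member without protease inhibition of its own, described as a suppressor of invasion in breast epithelium (chr18:63476761-63505085). It was already clearly present in control, at 14.8, 16.1, 18.1 and 14.9 CPM. EGF libraries held 539, 542, 544 and 568 CPM at 12 h and 266, 394, 426 and 460 CPM at 24 h. They stood at 57.9, 50.2, 68.3 and 64.3 CPM at 48 h and at 216, 207, 169 and 165 CPM at 72 h. Each group was separate from every other, and per kb of main transcript SERPINB5 had the highest level of the chromosome 18 members in every group, from 5.75 CPM per kb in control to 197 at 12 h. Its log2 fold changes against control were 5.10 ± 0.15, 4.59 ± 0.15, 1.91 ± 0.14 and 3.56 ± 0.15 in the order of the times.

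SERPINB3 inhibits papain-like cysteine proteases such as cathepsins L, K and S (chr18:63655197-63661963), and SERPINB4 inhibits the serine proteases cathepsin G and mast cell chymase (chr18:63637259-63644298). Both were at the edge of detection in control, where SERPINB3 had 2, 1, 4 and 0 counts and SERPINB4 had 0, 2, 3 and 1. SERPINB3 then reached 48.2, 46.5, 64.5 and 52.3 CPM at 12 h, 61.4, 85.9, 97.5 and 114 at 24 h, 12, 11.3, 17.6 and 16.7 at 48 h, and 59.3, 55.3, 42.9 and 43.3 at 72 h. SERPINB4 followed at 25.1, 22.7, 31 and 27.6 CPM at 12 h, 32.4, 51.6, 58.8 and 68.3 at 24 h, 6.65, 6.55, 9.57 and 8.75 at 48 h, and 38.5, 35.7, 26.9 and 27 at 72 h. Unlike SERPINB2 and SERPINB5, both were higher at 24 h than at 12 h, by 0.76 ± 0.17 for SERPINB3 and 0.99 ± 0.18 for SERPINB4 on the log2 scale. With 7 and 6 control counts in all, the size of the change is poorly bounded. For SERPINB3 the ratio of summed counts, scaled for depth, was 662 at 12 h (95% exact counting interval 321 to 1650) and 1120 at 24 h (545 to 2800). For SERPINB4 it was 390 (179 to 1060) at 12 h and 769 (353 to 2100) at 24 h. These intervals cover counting error only. Control replicate 3 held 4 of the 7 SERPINB3 counts, and without it the log2 fold change of SERPINB3 was 9.97 in place of 9.27 at 12 h and 10.73 in place of 10.03 at 24 h.

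The balance within the pair shifted over time. For every 100 counts of SERPINB3 there were 50.4 ± 2.35 counts of SERPINB4 at 12 h (SD, n = 4), 58.2 ± 3.68 at 24 h, 55 ± 2.39 at 48 h and 63.6 ± 1.34 at 72 h. The 72 h libraries, at 62.2 to 65, lay above all other EGF libraries, of which the highest stood at 60.3. The 12 h libraries, at 48.1 to 52.7, reached as high as the lowest 24 h library and overlapped with the 48 h ones. The plot of this ratio shows each library. Per kb of their main transcripts the SERPINB3 level was 29.8 and the SERPINB4 level 15.2 CPM at 12 h.

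**Figure D2:**
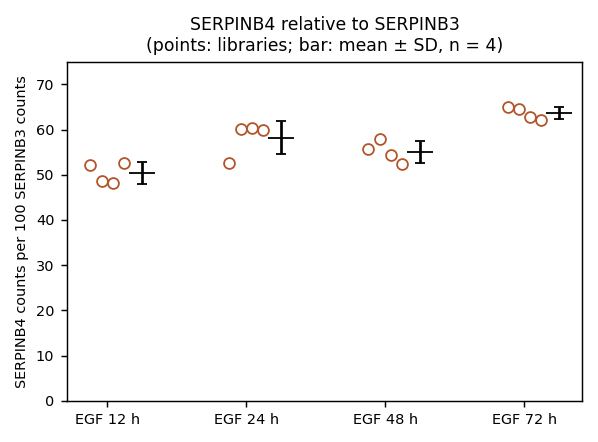
SERPINB4 counts per 100 SERPINB3 counts in each EGF library (circles), with the mean and SD of the 4 libraries of each time (bars), on an axis that starts at 0. The mean goes from 50.4 at 12 h to 63.6 at 72 h, and control is left out because its libraries held 0 to 4 counts of either gene.

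SERPINB7, or megsin, is an inhibitor of the epidermis whose loss causes a palmoplantar keratoderma (chr18:63752935-63805376). Its control libraries held 1.51, 0.967, 1.24 and 2.07 CPM. With EGF it stood at 70.2, 76.9, 69.4 and 75 CPM at 12 h, 61.7, 75.9, 84.6 and 83.4 at 24 h, 41.8, 34.5, 45.7 and 40.3 at 48 h, and 71.8, 69.5, 72.3 and 69.9 at 72 h. The level was the flattest of the strongly changed members, with libraries of 12, 24 and 72 h overlapping. Its log2 fold change against control was 5.67 ± 0.15, 5.74 ± 0.15, 4.83 ± 0.15 and 5.63 ± 0.15 in that order. Between 72 and 12 h the log2 difference was -0.04 ± 0.10.

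SERPINB8, an inhibitor of the proprotein convertase furin, had the lowest level per kb of the tested members with EGF, 0.742 CPM per kb at 12 h (chr18:63969925-64019779). It had 3 to 10 counts per library in control, or 0.151, 0.42, 0.256 and 0.192 CPM. It reached 2.07, 3, 2.38 and 2.87 CPM at 12 h, 0.989, 2.09, 2.31 and 2.73 at 24 h, 1.05, 0.978, 1.14 and 0.952 at 48 h, and 1.58, 2.33, 2.9 and 1.85 at 72 h. All EGF libraries lay above all controls, though at 24 h replicate 1 fell within the 48 h range. The log2 fold change was 3.28 ± 0.33, 2.93 ± 0.33, 1.96 ± 0.35 and 3.02 ± 0.33 at the 4 times. SERPINB13, also called headpin, inhibits cathepsins L and K (chr18:63586989-63604639) and had at most 6 counts in any library. Its counts summed to 3 in control and to 19, 7, 7 and 11 at 12, 24, 48 and 72 h. At 12 h the depth-scaled ratio to control was 7.22 (95% exact counting interval 2.12 to 38.1), and at 72 h it was 4.18 (1.1 to 23.3). At 24 and 48 h the interval included 1, so that no difference was detectable at this depth. These intervals cover counting error only. At 72 h the libraries, with 3, 5, 3 and 0 counts, overlapped with the controls, with 0, 2, 0 and 1.

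On chromosome 6, SERPINB1 had the highest level per kb of the family in every group. Its product, the leukocyte elastase inhibitor, blocks neutrophil elastase, cathepsin G and proteinase 3 (chr6:2832332-2842006). Control libraries held 83.8, 84.8, 83.4 and 83 CPM, 12 h libraries 1320, 1320, 1400 and 1340, and 24 h libraries 835, 917, 951 and 1020. The 48 h libraries stood at 179, 155, 194 and 193 CPM and the 72 h libraries at 399, 381, 335 and 338. The groups were separate at every time, with means 16.1-, 11.1-, 2.16- and 4.34-fold that of control (log2 4.01 ± 0.082, 3.48 ± 0.080, 1.11 ± 0.075 and 2.12 ± 0.076). Per kb of main transcript SERPINB1 was also first, at 32 CPM in control and 512 at 12 h, against 5.75 and 197 for SERPINB5.

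SERPINB6, an inhibitor of cathepsin G, thrombin and trypsin-like proteases needed for hearing, rose much less (chr6:2948159-2972165). It had 56, 49.5, 50 and 48.7 CPM in control, 91.5, 94.3, 94.8 and 97.5 at 12 h, and 112, 114, 114 and 117 at 24 h. At 48 h the libraries held 81.6, 76.2, 91 and 90.1 CPM, and at 72 h 77.7, 76.1, 78.2 and 78.3. All EGF libraries were above all controls, and the peak at 24 h was 2.24-fold (log2 1.16 ± 0.063). Unlike the other members called at each time, it was not called higher at 72 h than at 48 h (log2 difference -0.13 ± 0.062, edgeR adjusted p = 0.116).

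SERPINB9 is the inhibitor of granzyme B, with which cytotoxic lymphocytes kill their targets (chr6:2887266-2903280). Its libraries held 4.75 to 5.89 CPM in control, 5.16 to 5.96 at 12 h, 5.37 to 7.89 at 24 h and 5.32 to 6.75 at 48 h, so that all of these groups overlapped. The log2 difference from control was 0.02 ± 0.14, 0.20 ± 0.14 and 0.07 ± 0.14 (edgeR adjusted p = 0.914, 0.236 and 0.719). At 72 h the libraries stood at 7.17, 8.65, 5.81 and 8.37 CPM, 3 of 4 of them above every control, and the log2 difference was 0.44 ± 0.14 (edgeR adjusted p = 0.00766). The difference between 72 and 48 h was 0.37 ± 0.14 (edgeR adjusted p = 0.0362), and this call was lost under 5 of 9 other settings and when any 1 of 5 libraries was left out. The long noncoding pseudogene transcript SERPINB9P1, between SERPINB1 and SERPINB9, had mean levels of 4.12, 3.48, 5.12, 7.15 and 7.89 CPM from control to 72 h, and was called higher at 48 h (log2 0.79 ± 0.14, edgeR adjusted p = 6.44e-05) and 72 h (0.94 ± 0.14, edgeR adjusted p = 3.75e-06).

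Side by side, the chromosome 18 members had larger fold changes on the whole and the chromosome 6 members a larger summed level. The median log2 fold change of the 6 tested chromosome 18 members was 7.08, 6.53, 4.41 and 6.18 at 12, 24, 48 and 72 h, and that of the 3 chromosome 6 members was 0.889, 1.16, 0.731 and 0.604. The medians of all genes tested were -0.0544, -0.00713, 0.00987 and -0.00904. SERPINB2, SERPINB3, SERPINB4 and SERPINB8 had too few counts in control to pass the filter there and passed it through the EGF groups. The difference between the cluster medians at 12 h, 6.19, ranged from 4.49 to 4.78 under the 4 of 9 other settings that change which members are tested. The summed level of the chromosome 18 members went from 18.2 ± 1.61 CPM in control to 883 ± 22.4, 665 ± 156, 130 ± 17.8 and 383 ± 47.5 CPM at the 4 EGF times. The chromosome 6 sum, most of it SERPINB1, went from 140 ± 3.6 to 1440 ± 36.1, 1050 ± 80.3, 271 ± 24.4 and 448 ± 31.6 CPM. The fold change of SERPINB1 lay within the range of the chromosome 18 members at 12 and 24 h and below it at 48 and 72 h, and those of SERPINB6 and SERPINB9 lay below it throughout. The map of both clusters shows these values by position. Within the chromosome 18 cluster SERPINB3 had the highest log2 fold change at every time, though at 12 h SERPINB2 stood above it when control replicate 2 was left out (9.07 against 9.05), and the genes at both ends, SERPINB5 and SERPINB8, had the lowest. The 3 clade B genes outside the member list lie between them and had few counts. SERPINB11 had 0 counts in all 20 libraries, which over the 4 controls allows up to 0.0341 CPM. Its exons overlap those of SERPINB3 on the opposite strand. SERPINB10 had 2 counts in all, and SERPINB12 had sums of 4, 3, 4, 24 and 14 counts from control to 72 h, with a depth-scaled ratio to control of 6.07 (95% exact counting interval 2.09 to 24.1) at 48 h, when most members were at their lowest EGF level.

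**Figure D3:**
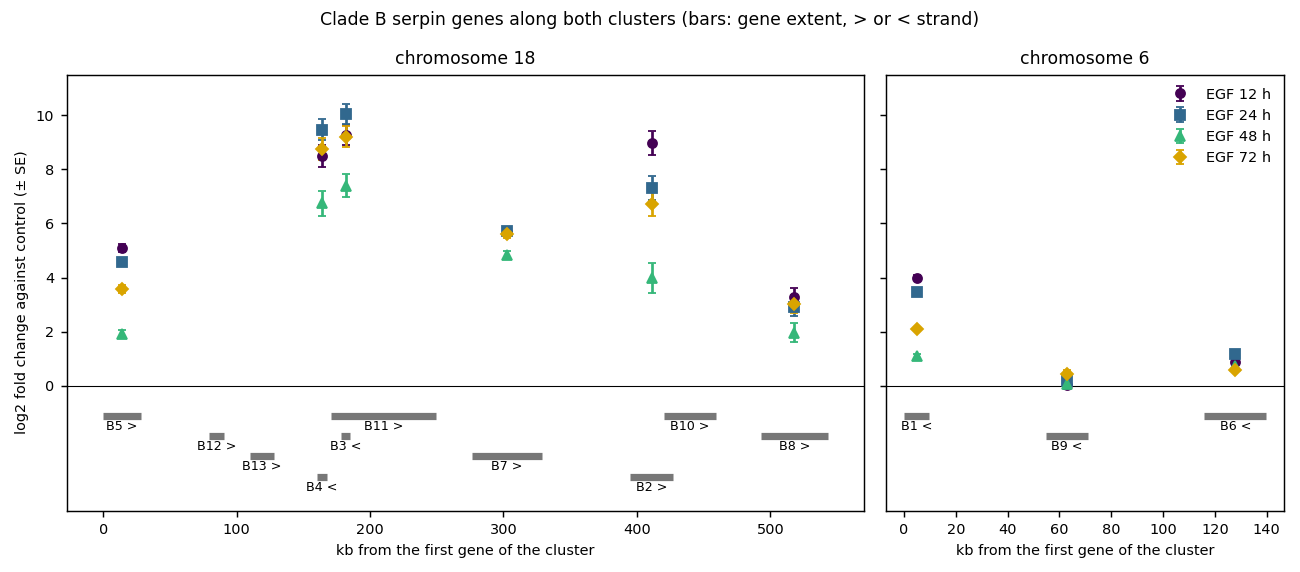
Log2 fold change against control (± SE) of each tested member at its place in the chromosome 18 (left) or chromosome 6 cluster (right), with kb from the first gene on the horizontal axis and each gene's extent and strand as grey bars below 0. SERPINB3 and SERPINB4 reach 10.03 and 9.47 at 24 h, from 7 and 6 control counts, and SERPINB9 lies between 0.02 and 0.44. SERPINB10, SERPINB11, SERPINB12 and SERPINB13 have bars and no points because they were not tested.

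Across the 20 libraries the log2 levels of the 15 pairs of chromosome 18 members had Pearson correlations of 0.877 to 0.995 (median 0.929). The 3 chromosome 6 pairs had 0.117 to 0.848 (median 0.121), and the 18 pairs between clusters 0.217 to 0.983 (median 0.836). SERPINB1 with SERPINB5 was the highest pair between clusters. Both low chromosome 6 values, 0.117 and 0.121, were pairs with SERPINB9, as was the lowest between clusters. The 20 libraries behind each correlation share the time course and differ in depth. With the group means removed, the medians were 0.533, -0.199 and 0.267 in the same order. EGF 24 h replicate 1 was the lowest of its group for every tested member but SERPINB9, and without it every call at 24 h stood. Of all tested genes, those whose log2 levels followed SERPINB5 most closely over the 20 libraries were FLRT3 (Pearson's r = 0.9956), CEACAM6 (0.995) and AFAP1L1 (0.9926). For SERPINB1 they were S100A10 (0.9938), ARNTL2 (0.9936) and ANXA2 (0.9933). None of these lies in either cluster.

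Order between times is described by the differences from one time to the next. From 12 to 24 h, 3 members were called higher (SERPINB3, SERPINB4 and SERPINB6) and 3 lower (SERPINB1, SERPINB2 and SERPINB5), where 53.7% of all genes were called in either direction. From 24 to 48 h, 8 of the 9 were called lower and none higher, against 24.3% of all genes called lower. From 48 to 72 h, 8 were called higher, against 17.9% of all genes. For SERPINB3, SERPINB4, SERPINB7 and SERPINB8 the levels at 72 and 12 h were not called different, with log2 differences of -0.07 ± 0.18, 0.27 ± 0.18, -0.04 ± 0.10 and -0.26 ± 0.25. The 72 h levels of SERPINB1, SERPINB2 and SERPINB5 were below those of 12 h by 1.89, 2.24 and 1.53 on the log2 scale.

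Serpins of other clades, most of them secreted, moved with another course. Of 23 listed, 9 could be tested, of which 4 were called higher and 1 lower at 12 h, 5 and 1 at 24 h, 6 and 1 at 48 h, and 7 and 1 at 72 h. Their median log2 fold change was 3.28 at 72 h, and 2.66 at 48 h, or 2.10 with SERPINA9 counted at its bound. SERPINE2, protease nexin 1, went from 2.08 ± 0.364 CPM in control to 95.5 ± 5.58 at 24 h (log2 5.52 ± 0.13, edgeR adjusted p = 1.97e-20). It had a lower mean at 48 h than at 24 or 72 h, as most clade B members did. The acute-phase serpins did not dip. SERPINA3, antichymotrypsin, had 23.8, 66.6, 94.8, 229 and 231 CPM from control to 72 h, and SERPINA1, antitrypsin, had 2.96, 14.3, 19.1, 30.6 and 50.7, both called higher at every time. SERPINA9 had 0 counts in the controls and 0.872 ± 0.147 CPM at 72 h, at least 25.6-fold higher when set against 3 counts over the control group. SERPINH1, a collagen chaperone that inhibits no protease, was the one called lower at each time, with 23.1 ± 3.64 CPM in control and 12.8 ± 1.09 at 24 h (log2 -0.85 ± 0.11, edgeR adjusted p = 6.7e-07). SERPINA2, SERPINA4, SERPINA7, SERPINA11, SERPINA12, SERPIND1, SERPINE3 and SERPINI2 had no more than 3 counts in any library.

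Several proteases that clade B serpins are known to inhibit were measured as well. Of 18 listed, 10 could be tested, with 6 called higher and 2 lower at 12 h, 7 and 2 at 24 h, 8 and 2 at 48 h, and 8 and 1 at 72 h, and with medians of 0.693, 0.529, 0.698 and 1.12. Both plasminogen activators, the targets of SERPINB2, were higher at every time. PLAT, the tissue-type activator, went from 0.277 ± 0.0848 CPM to 15.7 ± 1.88, 35.9 ± 8.57, 5.39 ± 1.01 and 49.5 ± 7.55 at the 4 EGF times (log2 7.47 ± 0.26 at 72 h, edgeR adjusted p = 4.09e-17). PLAU, urokinase, went from 9.09 ± 1.63 to 33 ± 0.523 CPM at 12 h (log2 1.86 ± 0.12, edgeR adjusted p = 3.63e-12). FURIN, the target of SERPINB8, was highest at 12 h at 18.5 ± 0.48 CPM against 6.04 ± 0.689 in control (log2 1.62 ± 0.11, edgeR adjusted p = 2.26e-12). CASP4, an inflammatory caspase, had 83.8 ± 8.19 CPM in control and 194 ± 8.23 at 72 h (log2 1.21 ± 0.085, edgeR adjusted p = 1.23e-11), and KLK8, an epidermal kallikrein, 5.93 ± 0.894 and 12.1 ± 0.613 (log2 1.02 ± 0.13, edgeR adjusted p = 1.69e-07). CTSL, cathepsin L, a target of SERPINB3 and SERPINB13, fell at each time, most at 24 h (log2 -0.59 ± 0.12, edgeR adjusted p = 0.000137). The other cathepsins named for SERPINB3, added here after their values were seen, went the other way. CTSS, cathepsin S, was called higher at 24, 48 and 72 h, from 8.07 ± 0.706 CPM in control to 21.2 ± 1.85 at 72 h (log2 1.40 ± 0.11, edgeR adjusted p = 9.23e-11), and CTSK, cathepsin K, at 48 and 72 h, from 5.89 ± 1.68 to 12 ± 1.39 CPM (log2 1.03 ± 0.14, edgeR adjusted p = 8.38e-07). The white blood cell proteases that SERPINB1, SERPINB4 and SERPINB9 inhibit were not seen. ELANE, CTSG, CMA1 and GZMB, as well as thrombin (F2), were at 0 in all 20 libraries, and PRTN3 had at most 12 counts in any.

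**Figure D4:**
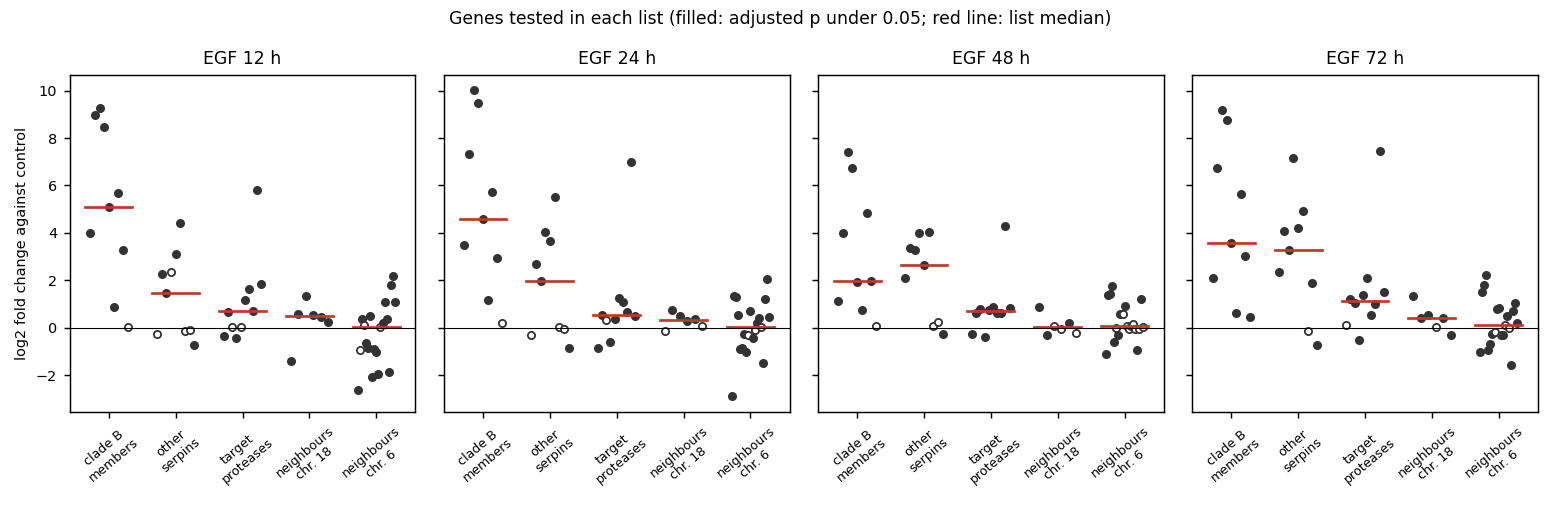
Log2 fold change against control of each tested gene in 5 lists at 12, 24, 48 and 72 h, with filled points for genes called at an edgeR adjusted p under 0.05, open points for the rest and red lines at list medians. Clade B members have medians of 5.10, 4.59, 1.96 and 3.56, while the neighbouring genes of the chromosome 18 cluster have 0.479, 0.329, 0.0295 and 0.41, and 1 of the other serpins, SERPINA9, has all controls at 0, so that its fitted value is no measure of size.

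Genes beside the clusters were followed for comparison. Of 22 genes that start within 1 Mb of the chromosome 18 cluster, 6 could be tested, with 5 called higher and 1 lower at 12 h, 4 and 0 at 24 h, 2 and 1 at 48 h, and 4 and 1 at 72 h. Their log2 fold changes lay between -1.41 and 1.34, below the smallest value of any tested chromosome 18 member, 1.91. All 6 lie on the SERPINB5 side of the cluster, 54.28 to 953.8 kb from it. No other gene inside the cluster or beyond SERPINB8 could be tested, so the comparison covers that side only. The untested AC036176.3, inside the cluster, had 0 CPM in control and 0.257 ± 0.103 at 12 h, with at most 8 counts in any library. KDSR, a sphingolipid synthesis enzyme, had 59.5 ± 4.96 CPM in control and 151 ± 6.05 at 12 h (log2 1.34 ± 0.088, edgeR adjusted p = 2.59e-12). BCL2, the apoptosis inhibitor, was called higher at 12, 24 and 72 h and lower at 48 h (log2 -0.31 ± 0.089, edgeR adjusted p = 0.0061). VPS4B, an ESCRT ATPase, was called higher at every time (log2 0.20 to 0.44), PHLPP1 and ZCCHC2 rose by 0.52 and 0.25 at 12 h, and the noncoding AC036176.1 was lower at 12 h (-1.41 ± 0.33, edgeR adjusted p = 0.000578) and higher at 72 h (1.34 ± 0.26, edgeR adjusted p = 0.000101). Near the chromosome 6 cluster 19 of 44 genes could be tested, with 8 called higher and 8 lower at 12 h, 9 and 7 at 24 h, 6 and 4 at 48 h, and 9 and 6 at 72 h. Among them TUBB2B, a tubulin, was higher at 12 h (log2 2.19 ± 0.25, edgeR adjusted p = 3.86e-08) and SLC22A23, a transporter, lower (-1.85 ± 0.12, edgeR adjusted p = 9.32e-13). GMDS was higher at 12 h (0.48) and lower at 72 h (-0.28), BPHL was lower at 72 h (-0.94), and the noncoding LINC01011 and AL391422.4 were higher at 72 h (0.85 and 1.81).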

How the data were processed

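RNA was sequenced from 20 libraries of MDA-MB-468 cells (Lexogen Corall mRNA, 75-base single reads). The deposited tables hold, for each library, an estimated count per gene that the authors rounded to whole numbers and did not normalize, together with a normalized value from DESeq2, a score on the scale of counts. The authors' columns also hold fold changes and p-values of each comparison, which were not used. The submitters name hg38 as the build. The aligner, the annotation and the handling of molecular identifiers are not given in the sources used here.

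From the deposited estimated counts onward, work was done in R 4.3.3 (edgeR 4.0.16, limma 3.58.1). Genes were kept by filterByExpr, libraries were scaled by TMM, and 1 model with a mean per group was fitted to all 20 libraries with glmQLFit (robust). Contrasts were tested by glmQLFTest, the quasi-likelihood test of edgeR, and p-values were adjusted by Benjamini-Hochberg across the 16522 genes tested, with a threshold of 0.05 and a prior count of 0.125 for log2 fold changes. CPM are counts per 1000000 counts of the TMM-scaled library. Values are mean ± SD of 4 libraries, and log2 fold changes carry their SE. Correlations used log2 CPM with a prior count of 2. Exact intervals are 95% conditional binomial. Positions are from GENCODE 29, in which 58036 of 60271 gene IDs were found, and upstream sequences from RefSeq (GRCh38.p14). Neighbours start within 1 Mb of a cluster. Levels per kb use the main coding transcript.

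The members and lists were chosen with earlier results of these data known. All 10 members are reported, with up to 6 genes of each other list, those called at most times against control and then those of highest mean CPM, except 1 that is not reported here. The scripts were tested on simulated counts. Replicates differed by more than counting noise in all 30 pairs. The alternatives tried were other scalings, filters, sample sets and DESeq2 1.42.0.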

Additional observations from a re-analysis of the deposited data

Results flagged for a closer look

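Of 50 sets of 4 libraries looked at, 1 had a library standing apart from the other 3, which is no more than chance gives in about 1 in 20 sets. SERPINB5 in EGF 12 h replicate 4 had 568 CPM, against 539, 542 and 544 in the other libraries of that time.

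The change against control differed between consecutive EGF times in 22 of 27 tests of the difference itself. Of all 16522 genes tested, 8879 were called in either direction for 24 against 12 h. For 48 against 24 h 8292 were called, and for 72 against 48 h 5906. From 12 to 24 h the log2 difference was -0.53 for SERPINB1, -1.64 for SERPINB2, 0.76 for SERPINB3, 0.99 for SERPINB4, -0.50 for SERPINB5 and 0.27 for SERPINB6. From 24 to 48 h it was -2.37 for SERPINB1, -3.33 for SERPINB2, -2.63 for SERPINB3, -2.73 for SERPINB4, -2.68 for SERPINB5, -0.43 for SERPINB6, -0.91 for SERPINB7 and -0.97 for SERPINB8. From 48 to 72 h it was 1.01 for SERPINB1, 2.74 for SERPINB2, 1.79 for SERPINB3, 2.02 for SERPINB4, 1.65 for SERPINB5, 0.80 for SERPINB7, 1.06 for SERPINB8 and 0.37 for SERPINB9. These differences use the levels by which the genes were chosen and are given as a description.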

How the results depend on the processing

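Of 1029 recomputed member values, 1007 kept their direction and side of the threshold, among them every value of SERPINB1, SERPINB2, SERPINB3, SERPINB4, SERPINB5, SERPINB7 and SERPINB8. The number of members called moved most under 2 of 9 settings, which test only 5 members (SERPINB1, SERPINB5, SERPINB6, SERPINB7 and SERPINB9). At least 10 counts in every library gave 4, 4, 4 and 5 members against control at 12, 24, 48 and 72 h, and 3, 4 and 4 from each time to the next. Factors per gene from the deposited normalized values gave 4, 4, 4 and 5, and 2, 4 and 3. Elsewhere it moved by 1: 9 members were called at 12 h without a filter and with DESeq2, and 7 for 72 against 48 h without a filter and with only the 8 libraries compared. Leaving out single libraries gave 8 members at 12, 24 and 48 h, 9 at 72 h, 6 for 24 against 12 h, 8 for 48 against 24 h, and 7 to 9 for 72 against 48 h.

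The median of the chromosome 18 minus that of the chromosome 6 members was moved by which members were tested. It was 4.78, 4.57, 3.26 and 5.03 at 12, 24, 48 and 72 h with no filter, 4.78, 4.58, 3.29 and 5.03 with DESeq2, 4.49, 4.00, 2.64 and 3.99 with at least 10 counts, and 4.65, 4.14, 2.73 and 4.20 with the factors per gene. Without single libraries it ranged from 5.98 to 6.41, 5.23 to 5.53, 3.59 to 3.82 and 5.48 to 5.72.

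SERPINB9 turned sign against control, never past the threshold, at 12 h scaled by library size only (-0.27) or upper quartile (-0.14), with at least 10 counts (-0.02), with the factors per gene (-0.07) and without control replicate 2 (-0.05) or EGF 12 h replicate 1 (-0.01), and at 48 h without EGF 48 h replicate 2 (-0.01). Without single libraries it ranged from -0.05 to 0.06 at 12 h and from -0.01 to 0.10 at 48 h. SERPINB6 was called lower at 72 than at 48 h when scaled by library size only (-0.22) or upper quartile (-0.17). The same held without EGF 48 h replicate 2 (-0.17, edgeR adjusted p = 0.0325). The SERPINB6 rise from 12 to 24 h was no longer called with the factors per gene (0.24, edgeR adjusted p = 0.0685). The SERPINB9 difference from 24 to 48 h turned to 0.02 scaled by library size only. The rise of SERPINB9 from 48 to 72 h no longer passed without EGF 48 h replicate 1 (0.34), 3 (0.36) or 4 (0.34) or EGF 72 h replicate 2 (0.30) or 4 (0.32). Library size only moved the median of all genes at 12 h to -0.337 and upper quartiles to -0.216.

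Replicate numbers did not pair the libraries, since the deviations of 40 same-numbered pairs correlated at a median of 0.00792. With a replicate block, 8, 8, 8 and 9 members were called against control. SERPINB3 and SERPINB4 summed as 1 gene kept their calls. Without a filter, SERPINB13 was 2.69 ± 0.96 higher at 12 h on the log2 scale (edgeR adjusted p = 0.0125), from 3 control counts. At 72 h its difference of 1.89 ± 1.04 was not called (edgeR adjusted p = 0.135). Under about 1 CPM, counts are few and errors large.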
